A study of Homo sapiens with 12 samples.

Results

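Untreated control Caco-2 cells were described at baseline from 3 of the 12 arrays of the series, those titled as the native line without doxycycline. Caco-2 is an established human colorectal cancer cell line, widely used as a model of the absorptive intestinal epithelium. The titles and source names of these 3 arrays call the line native, while their genotype label reads as a non-silencing vector, and which of these it was is not settled by the labels. These cells received no doxycycline. The other 9 arrays (the same line with 5 µg/ml doxycycline, and cells labelled for an inducible hairpin against LRH-1, without or with the drug) were not compared here. RNA was taken 96 hours after induction according to the protocol shared by all samples, which places induction before full confluence. Nothing in the labels says that the 3 arrays were separate cultures, so the SDs below measure the spread between arrays, which may be technical. All 3 share 1 chip.

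The endoderm of the embryo gives rise to the intestine, the liver, the stomach and the pancreas, and these organs share regulators such as the FOXA, HNF and GATA transcription factors. Absorptive intestinal cells carry a brush border of microvilli with digestive enzymes and package dietary fat with apolipoproteins, while hepatocytes secrete most plasma proteins. Genes such as AFP are active in the fetal liver and yolk sac and are silenced after birth. The data were read with this background, by asking which genes of each identity gave a signal above the arrays' negative controls.

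A gene was represented by its brightest probe, and its signal is the deposited mean bead intensity. A gene was called detected when its deposited detection p-value was under 0.05 on all 3 arrays, not detected when it was under 0.05 on no array, and mixed otherwise. Rank 1 is the gene with the highest mean log2 signal, and a percentile is the share of genes with a lower one. Probes differ in how strongly they bind, so ranks order probes by brightness and do not measure RNA amounts. No group was compared with another, and no test between samples was run. Of 20042 genes, 10951 (54.6%) were detected, 1663 were mixed and 7428 (37.1%) were not detected. Array medians ran from 251 intensity units on array 2 to 386 on array 1, and array 2 gave the lowest of the 3 signals for most genes named below. Between 57.1% and 60.3% of genes were detected per array, and the log2 signals of array pairs correlated at 0.994 to 0.996 across genes, which are not independent replicates. Just inside the threshold, ADAMTS15 had a highest detection p-value of 0.0494 and a mean signal of 392. Just outside it, CGB7 had a lowest detection p-value of 0.0506 and a mean signal of 365, so the calls part genes of nearly equal brightness.

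**Figure D1:**
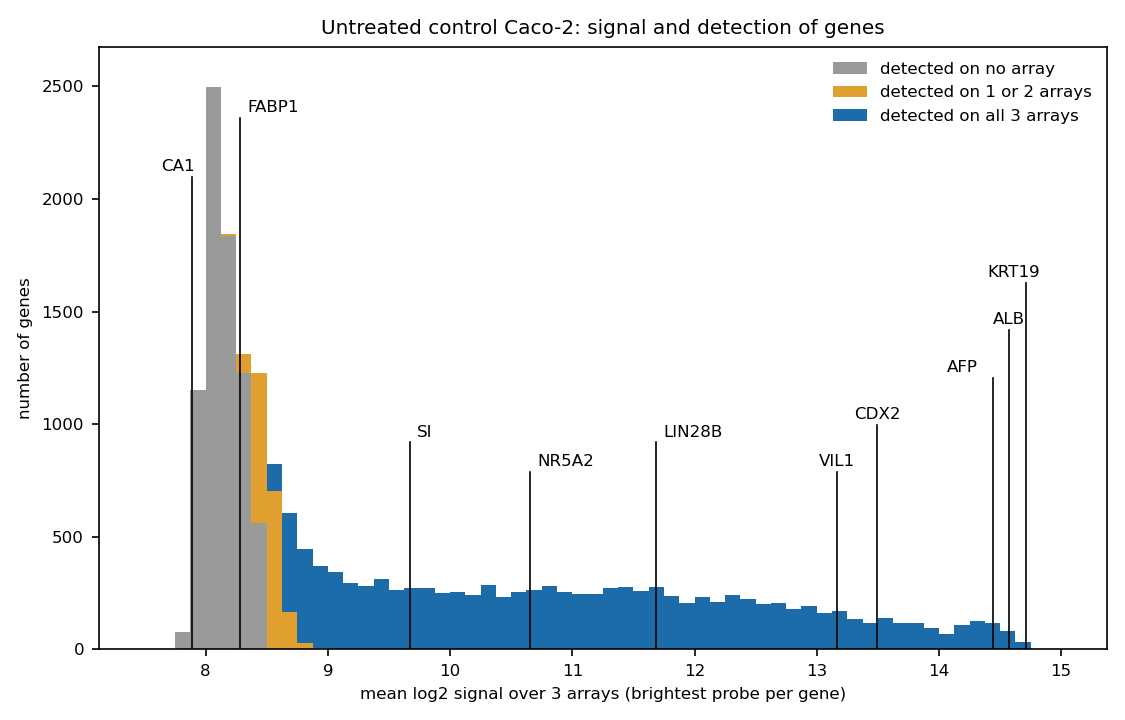
Number of genes (vertical axis) by mean log2 signal over the 3 arrays (horizontal axis, brightest probe per gene) for 19948 genes, stacked by detection call, with lines at 10 named genes. Genes detected on no array form the peak at the left, and detected genes spread to the right, with KRT19 at 14.71 the furthest right of the marked genes.

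The brightest genes held 4 members of the gene lists used here, EEF1A1, KRT19, APOA2 and TTR. In order, the 25 brightest were TUBA1C, TPI1, EEF1A1, NDUFS8, UBB, ATP5F1A, KRT19, RPL13A, EIF4A1, RPL13AP20, ATP5MG, APOA2, PHGDH, ANXA2, TTR, RPS27, OAZ1, AHCY, SLC25A3, RPL3, LDHA, TXN, TPT1, RPS25 and RPL13AP5. They include 4 ribosomal protein genes and 2 pseudogenes of RPL13A, whose probes may read the parent gene. Their mean signals lay between 25787 and 27566 intensity units, a range smaller than the SD of most of them, so the order within these 25 is not resolved. TUBA1C, an alpha-tubulin, gave 30221, 23705 and 28771 on arrays 1, 2 and 3. OAZ1, an inhibitor of polyamine synthesis, had the most even raw signals of the 25, with 26788, 25822 and 25093. Because array 2 was dimmer as a whole, this is not steadiness relative to other genes. Its percentiles were 99.63, 100 and 99.73 on arrays 1, 2 and 3. APOA2, an apolipoprotein of high-density lipoprotein, and TTR, transthyretin, a carrier of thyroid hormone, stood at ranks 12 and 15 of all genes. PHGDH, the enzyme that opens serine synthesis, stood at rank 13.

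Keratins and adhesion genes led the epithelial list. Of 18 epithelial genes, 15 (83.3%) were detected and 7 lay among the brightest 10% of genes. The keratin KRT19 gave 29507, 22741 and 28619, with a mean of 26956 ± 3677 (SD, n = 3), at rank 7. EPCAM, an epithelial adhesion molecule, gave 26525, 22993 and 25205, at rank 42. E-cadherin, CDH1, stood at rank 309 and the keratin KRT8 at rank 281. KRT18, the usual partner of KRT8, was at rank 9450, with 554, 420 and 646, and was detected on all 3 arrays. KRT7, ESRP2 and OCLN were not detected. Among 49 keratins, a family chosen after its values were seen, 6 (12.2%) were detected, beside 54.6% of all genes: KRT19, KRT8, KRT10, KRT18, KRT24 and KRT15. The colon-type keratin KRT20 was detected on 2 arrays, with 446, 314 and 418.

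Markers of endothelial cells, fibroblasts and immune cells were each detected in part. Of 9 endothelial genes only PECAM1 was detected, with 855, 598 and 829, ESAM was mixed, and the defining genes VWF and CDH5 were not detected. The summed signal of these 9 lay between 2177 and 3568 intensity units per array. No background was subtracted, so this sum and those of the next lists consist in part of background. Of 12 fibroblast genes 5 were detected: PDGFRB, a growth factor receptor (3094, 2525 and 2321), LUM and VIM on their brighter probe only, COL1A1 and PDGFRA. COL1A2, COL3A1, DCN, THY1, FAP, POSTN and ACTA2 were not, and the list's summed signal was 6975 to 9925. Of 15 immune genes 8 (53.3%) were detected, near the 54.6% of all genes, led by the lipopolysaccharide receptor CD14 (4936, 4518 and 5174), the lysosomal CD68 and the antigen presentation gene CD74. The macrophage growth factor receptor CSF1R (1167, 790 and 1146), the class II gene HLA-DRA (827, 650 and 904) and the Fc receptor chain FCER1G (600, 440 and 646) were also detected. CD79A of B cells and CD3D of T cells were detected on 1 of their 3 probes each. The pan-leukocyte gene PTPRC, the T cell gene CD3E and the myeloid genes TYROBP and ITGAM were not detected, and the list summed to 13988 to 18367.

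**Figure D2:**
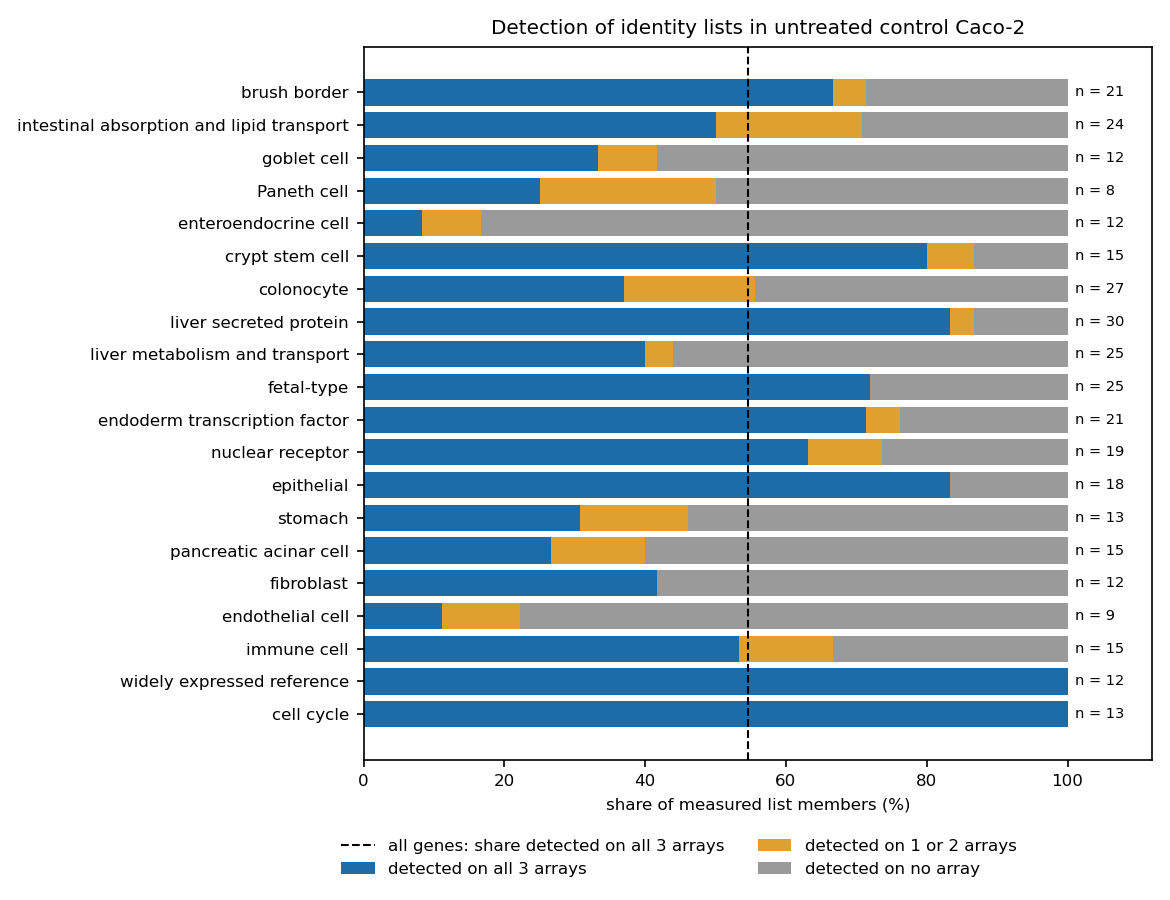
Share of measured members (horizontal axis, %) of each of 20 gene lists that were detected on all 3 arrays, on 1 or 2 arrays, or on no array, with the number measured at the right. The dashed line is the 54.6% of all genes detected on all 3 arrays, and liver secreted genes reach 83.3% where colonocyte genes reach 37%.

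Plasma protein genes of the liver were among the brightest of the cells. Of 30 liver secreted protein genes, 25 (83.3%) were detected, beside 54.6% of all genes. Of the 30, 13 were in the brightest 10%, where 10% of all genes lie by definition. The list had a median percentile of 79.7. Albumin, ALB, gave 26824, 22204 and 24378, with a mean of 24468 ± 2311 (SD, n = 3), at rank 55. APOA2 gave 29827, 21998 and 26711, and TTR gave 30068, 23139 and 24979. All of these signals lay far above the lowest detected signals, 278 to 438 intensity units per array. The protease inhibitor SERPINA1, alpha-1-antitrypsin, gave 27492, 19079 and 25925 on its brightest probe and 24518, 20243 and 23135 on another, while its remaining probes were mixed or not detected.

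All 3 chains of fibrinogen, the precursor of the fibrin clot, were bright. FGB gave 26606, 21650 and 23548, FGG gave 25174, 18996 and 21670, and FGA gave 20087, 16647 and 19034. FGG and FGA each had another probe that was not detected. Vitronectin, VTN, stood at rank 148, fetuin-A, AHSG, at rank 494, orosomucoid, ORM1, at rank 538 and beta-2-glycoprotein, APOH, at rank 543. The probe of ORM1 may also read its close relative ORM2. ITIH2, a heavy chain of the hyaluronan-binding inter-alpha-trypsin inhibitor, and AGT, angiotensinogen, were in the brightest 10% as well. RBP4, the retinol carrier, lay just outside it at rank 2009, with 7924, 6006 and 6246. Coagulation factor X, F10, gave 2785, 2320 and 2640, antithrombin, SERPINC1, gave 1318, 981 and 1274, and prothrombin, F2, gave 855, 697 and 585.

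Other plasma proteins sat close to background. The iron carrier transferrin, TF, gave 607, 423 and 525, and haptoglobin, HP, which binds free hemoglobin, gave 476, 370 and 504, both detected on all 3 arrays. Complement C3 gave 450, 293 and 527 on its brighter probe, and its other probe was not detected. Plasminogen, PLG, gave 289, 194 and 295 and was not detected. The same call held for ceruloplasmin, CP, the precursor of bikunin, AMBP, and ITIH3, while A1BG was mixed. Plasma protein genes thus ran from rank 12, APOA2, to rank 18891, PLG.

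Liver genes of intermediary metabolism gave a different picture. Of 25 such genes, 10 (40%) were detected, 14 were not and 1 was mixed, with a median percentile of 34.7. AKR1C4, a steroid-reducing enzyme, gave 16859, 10773 and 18361, at rank 630, but its other probe was not detected and the AKR1C genes are near-identical, so this value is uncertain. The urea cycle gene ASS1, argininosuccinate synthase, gave 14434, 9668 and 11577, and CPS1, which starts the cycle, gave 863, 665 and 873. OTC and ARG1, also of the urea cycle, were not detected. The asialoglycoprotein receptor chains ASGR1 (7468, 5656 and 6752) and ASGR2 (4125, 2587 and 2709) were detected. So was the bile acid uptake carrier SLC10A1 (6671, 6091 and 6181), whose range of raw signal over the arrays was small. CYP27A1, a bile acid synthesis enzyme, the alcohol dehydrogenase ADH4, the tryptophan dioxygenase TDO2 and the uptake carrier SLCO1B1 completed the detected genes. ASS1, ASGR2, TDO2 and SLCO1B1 each had another probe that was not detected. On its detected probe SLCO1B1 was near background, with 453, 329 and 493.

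Not detected were CYP7A1, the rate-limiting enzyme of bile acid synthesis (278, 163 and 285), CYP8B1, the drug-metabolising CYP1A2 and CYP2E1, and the bile salt pump ABCB11. The tyrosine enzymes TAT and HPD, the gluconeogenic PCK1 and G6PC1, the liver glycogen synthase GYS2, BAAT and UGT2B4 were also not detected. In each of these genes all probes were at background. The liver secreted list and the metabolic list both hold genes that hepatocytes express, and 83.3% of the first and 40% of the second were detected beside 54.6% of all genes. That difference was not tested.

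**Figure D3:**
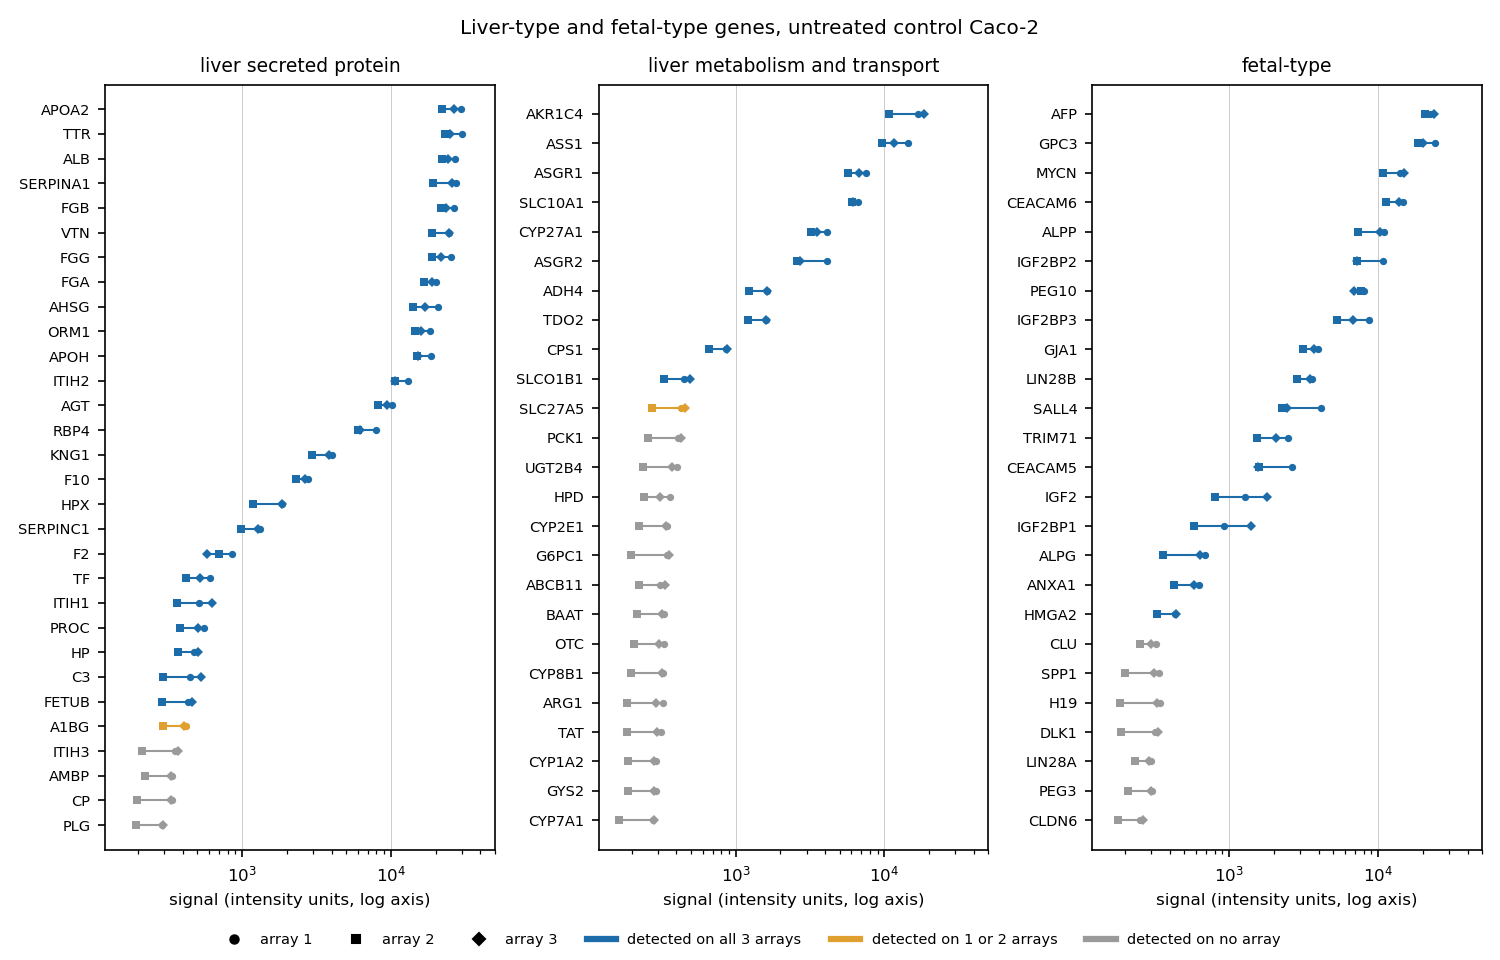
Signal in intensity units (log axis) on each of the 3 arrays (circle, square and diamond for arrays 1, 2 and 3, joined by a line) for liver secreted, liver metabolic and fetal-type genes, coloured by detection call. Of the 3 panels, the secreted genes reach furthest right, 14 of the 25 metabolic genes sit at background, and AFP and GPC3 lead the fetal-type panel.

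Fetal-type genes were a mixture of bright and absent signals. Of 25 genes, 18 (72%) were detected, beside 54.6% of all genes, 7 were not and none was mixed. Of the 25, 8 were in the brightest 10%. Alpha-fetoprotein, AFP, the fetal counterpart of albumin, gave 22401, 20702 and 23868, with a mean of 22324 ± 1584 (SD, n = 3), at rank 162. Its signals overlapped those of ALB in range over the arrays. The array maxima were 25822 to 33351 intensity units, and the 100 brightest genes had means of 23483 to 27566. Similar signals so high in the range do not show similar RNA amounts. GPC3, glypican-3, an oncofetal proteoglycan, gave 24128, 18453 and 19995, at rank 274. MYCN, a MYC family transcription factor, gave 14126, 10788 and 15072.

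The RNA-binding proteins of the fetal program were detected with an exception. LIN28B, which blocks let-7 microRNA maturation, gave 3602, 2851 and 3497, while its relative LIN28A, with 297, 232 and 288, was not detected. The IGF2 mRNA-binding proteins IGF2BP2 (10769, 7218 and 7207) and IGF2BP3 (8724, 5288 and 6795) lay in the brightest 10%, and IGF2BP1 gave 920, 581 and 1411. IGF2 itself, a fetal growth factor, gave 1283, 801 and 1808, while H19, the noncoding RNA of the same imprinted locus, gave 345, 185 and 326 and was not detected. HMGA2, a chromatin protein, was just above background with 434, 326 and 440. The pluripotency-related SALL4 and, on its brighter probe only, TRIM71, the gap junction gene GJA1 and the retrotransposon-derived PEG10 were detected. IGF2, HMGA2 and PEG10 each had another probe that was not detected. The genes CLU, SPP1, DLK1, PEG3 and CLDN6 were not detected, with CLDN6 at rank 20017 of 20042.

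The oncofetal and placental surface genes were also detected, on probes that may cross-read relatives. CEACAM6 gave 14729, 11260 and 13830 and CEACAM5, carcinoembryonic antigen, gave 2634, 1583 and 1564. CEACAM7, a marker of mature colon, gave 295, 199 and 315 and was not detected. Placental alkaline phosphatase, ALPP, gave 11035, 7313 and 10278, the intestinal enzyme ALPI gave 1397, 954 and 1203, and ALPG gave 689, 360 and 640. The tissue-nonspecific ALPL was not detected.

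Promoter sequences are shown for ALB and AFP, neighbours on chromosome 4 whose signals were alike, for FABP1, an intestinal and liver gene that was not detected, and for CDX2, an intestinal regulator. HNF1 factors bind a palindrome, GTTAATNATTAAC, in many liver promoters, and capitals mark matches to its first 6 letters, GTTAAT, searched on both strands, with no overlapping matches. Each sequence holds 250 bases before and 50 bases after the gene's start, from RefSeq on GRCh38.p14, written on the gene's strand. ALB is chr4:73404037-73404336 (+), AFP is chr4:73435971-73436270 (+), FABP1 is chr2:88128013-88128312 (-) and CDX2 is chr13:27969266-27969565 (-).
ALB: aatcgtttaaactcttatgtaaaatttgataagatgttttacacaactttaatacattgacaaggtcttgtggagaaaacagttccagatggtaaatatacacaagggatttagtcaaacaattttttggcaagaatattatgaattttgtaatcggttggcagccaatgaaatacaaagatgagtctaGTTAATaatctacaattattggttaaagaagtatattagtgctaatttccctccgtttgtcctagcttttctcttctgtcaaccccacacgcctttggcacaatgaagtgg
AFP: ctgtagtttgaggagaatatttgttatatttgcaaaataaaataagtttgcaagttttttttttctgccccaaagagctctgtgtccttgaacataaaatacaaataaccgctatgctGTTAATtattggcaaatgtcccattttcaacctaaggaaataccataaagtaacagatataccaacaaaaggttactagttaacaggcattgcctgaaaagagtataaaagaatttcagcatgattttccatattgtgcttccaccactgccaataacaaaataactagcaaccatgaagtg
FABP1: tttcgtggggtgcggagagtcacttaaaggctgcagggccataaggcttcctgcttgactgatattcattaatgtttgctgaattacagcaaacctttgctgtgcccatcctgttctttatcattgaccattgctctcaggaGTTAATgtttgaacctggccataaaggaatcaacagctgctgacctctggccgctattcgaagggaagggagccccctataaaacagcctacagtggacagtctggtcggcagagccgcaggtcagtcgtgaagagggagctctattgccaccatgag
CDX2: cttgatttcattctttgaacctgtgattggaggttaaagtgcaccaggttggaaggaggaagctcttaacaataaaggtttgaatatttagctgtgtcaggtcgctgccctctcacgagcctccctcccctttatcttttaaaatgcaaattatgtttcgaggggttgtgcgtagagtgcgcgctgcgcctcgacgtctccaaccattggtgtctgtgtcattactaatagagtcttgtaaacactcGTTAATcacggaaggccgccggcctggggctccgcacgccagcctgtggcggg
Each of the 4 windows holds 1 match, which begins 61 bases before the start in ALB, 132 in AFP, 108 in FABP1 and 3 in CDX2. The 6 letters occur in 6.88% of all 35116 promoters of the table, and the whole palindrome in 2 of them. The list counts that follow are per gene: a gene was counted when any of its promoter entries held the letters. They are therefore not on the same footing as the 6.88%, and no share per gene over all genes was taken. Of the detected liver secreted genes, 20 had a promoter entry and 7 of these (35%) held the letters: ALB, FGA, FGB, APOH, SERPINA1, F2 and PROC. Of the 3 such genes that were not detected and had an entry, 1 held them, PLG. In liver metabolism 2 of 8 detected genes and 1 of 8 genes not detected held the letters. In the brush border list 2 of 9 detected genes, 2 of 6 genes not detected and the only mixed gene held them. For absorption and lipid transport these counts were 2 of 8 detected, 1 of 7 not detected and 2 of 4 mixed. For the colonocyte list they were 1 of 6, 0 of 10 and 2 of 4, and for the fetal-type list 2 of 12 detected and 1 of 3 not detected. In every list but the colonocyte list, promoters of genes that were not detected held the letters too. These matches describe letters and are not shown to be sites.

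Brush border genes ranged from the brightest 1% of genes to background. Of 21 brush border genes, 14 (66.7%) were detected, 6 were not and 1 was mixed, beside 54.6% of all genes and 58.8% of protein-coding genes detected. CDH17, the intestinal cadherin, gave 26351, 21145 and 22952, with a mean of 23483 ± 2643 (SD, n = 3), at rank 100. The scaffold PDZK1 gave 13983, 10418 and 12316, and villin, VIL1, which bundles microvillar actin, gave 11541, 7874 and 8486. The myosin MYO1A, the protocadherin CDHR5, USH1C and CLRN3 were at percentiles between 74.3 and 84.6, while the protocadherin CDHR2 and the myosin MYO7B, partners of CDHR5 and USH1C at the microvillus tip, were not detected.

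Among the digestive enzymes, DPP4, a dipeptidyl peptidase, gave 7838, 6540 and 5888, and MEP1A, a metalloprotease, gave 6191, 5358 and 6038. Sucrase-isomaltase, SI, gave 852, 698 and 912, and lactase, LCT, gave 845, 630 and 809, so these disaccharidases were detected at percentiles of 60.1 and 58.9. Maltase-glucoamylase, MGAM (366, 231 and 379), trehalase, TREH (319, 212 and 365), and neprilysin, MME, were not detected on any of their probes. Aminopeptidase N, ANPEP, with 387, 264 and 456, was detected on 1 array only, and MEP1B on none.

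Apolipoproteins led the genes of absorption and lipid transport, and FABP1 and FABP2 were not detected. Of 24 absorption and lipid transport genes, 12 (50%) were detected, 5 were mixed and 7 were not, near the 54.6% of all genes. Without array 3, when detection on the other arrays sufficed, 15 of the 24 were detected. Apolipoprotein A-I, APOA1, gave 26340, 20000 and 24281, at rank 99. APOB, the structural protein of chylomicrons, gave 18110, 14850 and 14385, APOC3 gave 16719, 14830 and 18589, and APOA4, an intestinal apolipoprotein, gave 1571, 1320 and 1602. MTTP, which loads lipid onto APOB, gave 449, 314 and 352 and was detected on 2 arrays. The fatty acid binding proteins of liver, FABP1 (365, 260 and 315), and intestine, FABP2 (361, 214 and 407), were not detected, and the ileal FABP6 was mixed. RBP2, the intestinal retinol-binding protein, gave 7481, 5049 and 5898.

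Transporters were spread over the range. The iron exporter SLC40A1 gave 9916, 6913 and 6798, and the folate carrier SLC46A1, the ferric reductase CYBRD1 and the cholesterol importer NPC1L1 were also detected. The glucose carriers SLC2A2 (667, 519 and 719) and SLC2A5 (624, 491 and 642) were detected at low signal. In the same family of 14, chosen after its values were seen, 9 (64.3%) were detected, beside 54.6% of all genes. SLC2A3 (29314, 19489 and 22888) and SLC2A1 (20925, 20002 and 20753) were its brightest members. The sodium-glucose cotransporter SLC5A1 and the ileal bile acid carrier SLC10A2 were mixed, on 2 arrays and 1 array. The peptide carrier SLC15A1, the sterol exporters ABCG5 and ABCG8, the vitamin B12 receptor chain CUBN and the drug-metabolising CYP3A4 were not detected.

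Among 20 apolipoproteins, a family chosen after its values were seen, 12 (60%) were detected, near the 54.6% of all genes. Of the 20, 9 were in the brightest 10%. The share depends on the pooling, because the 20 include APOL1 to APOL6, of which only APOL3 was detected. APOD gave 26159, 18796 and 24343, APOE gave 24121, 17964 and 20746, APOM gave 14723, 12740 and 16161, and APOC1 gave 11568, 11263 and 12689. APOC2, which activates lipoprotein lipase, gave 363, 274 and 391 and was not detected. APOC4, APOL1, APOL4 and APOL5 were not detected either.

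Mature colon genes were detected in the smallest share of the 4 identities, 2 of which pool unlike lists. Of 27 colonocyte genes, 10 (37%) were detected, beside 54.6% of all genes, 5 were mixed and 12 were not. Detected were 48.9% of 92 intestinal genes, 63.6% of 55 liver-type genes and 72% of 25 fetal-type genes, differences that were not tested. The intestinal genes pool crypt (80%), brush border (66.7%), absorption (50%), goblet (33.3%), Paneth (25%) and enteroendocrine (8.33%) lists, and the last 3 lay below the colon share. The liver-type genes pool the secreted (83.3%) and metabolic (40%) lists. Only SCNN1A, a subunit of the epithelial sodium channel, was in the brightest 10%, with 10534, 7706 and 10043. Its partner subunits SCNN1B (338, 228 and 395) and SCNN1G (detected on 1 array) gave signals at or near background. CEACAM1 gave 7102, 5318 and 6485, and the carbonic anhydrase CA2 gave 5141, 3511 and 5226. The carbonic anhydrases of mature colonocytes CA1 (289, 178 and 261) and CA4 (393, 245 and 397) were not detected, with CA1 at rank 19908.

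GUCA2A, the peptide guanylin, gave 3051, 2489 and 2874, while its relative GUCA2B was detected on 2 arrays with 487, 293 and 433. SLC51B, a chain of the basolateral bile acid exporter, gave 2848, 2148 and 2716, and its partner chain SLC51A was detected on 1 array, with 398, 321 and 396. The chloride-bicarbonate exchanger SLC26A3 gave 1648, 1168 and 1167, and SLC26A2, HSD11B2, SELENBP1 and LGALS4 were also detected. The immunoglobulin transporter PIGR (288, 165 and 308), the water channel AQP8, the proton channel OTOP2, BEST4, CLCA4, MS4A12, TMIGD1, SLC9A3 and CEACAM7 were not.

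**Figure D4:**
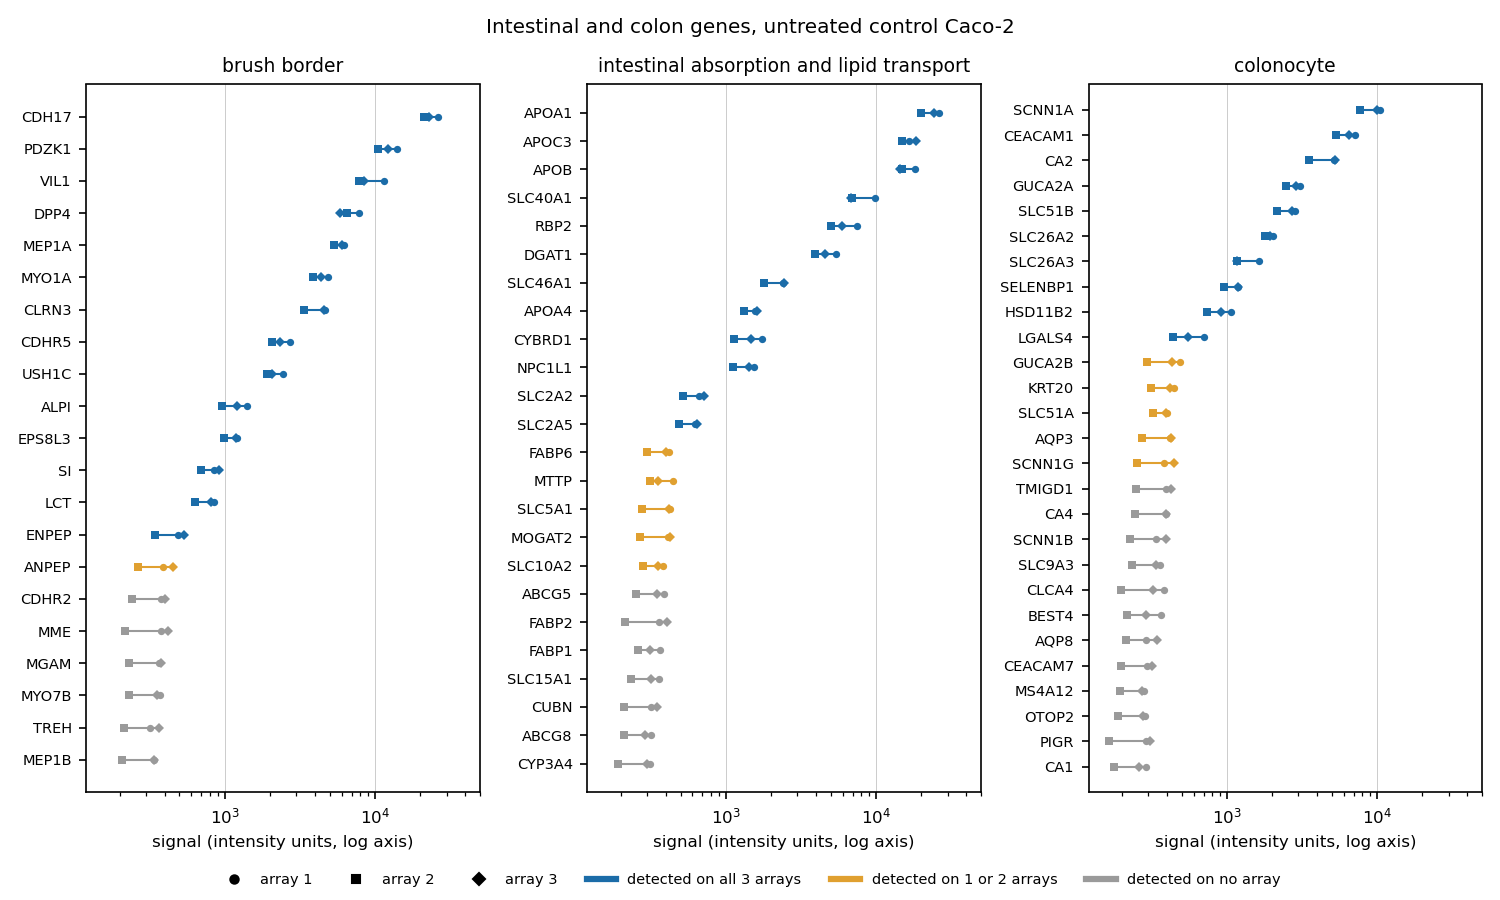
Signal in intensity units (log axis) on arrays 1, 2 and 3 (circle, square and diamond, joined by a line) for brush border, absorption and lipid transport, and colonocyte genes, coloured by detection call. CDH17 and APOA1 pass 20000 on average, no colonocyte gene does, and FABP1, FABP2 and CA1 lie at background.

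Of the goblet, Paneth and enteroendocrine lists, only the goblet list held genes in the brightest 10%, and these were 3. Of 12 goblet cell genes, 4 (33.3%) were detected, beside 54.6% of all genes. These were the trefoil factor TFF3 (27328, 20621 and 24596), the disulfide isomerase AGR2 (18266, 14267 and 16268), the lectin REG4 (13138, 10356 and 15824) and, near background, RETNLB (453, 299 and 491). The secreted mucin MUC2 (409, 236 and 420) and the goblet regulators ATOH1 and SPDEF were not detected. TFF1 (11801, 10631 and 10876) and TFF2 (10353, 8822 and 9810), trefoil factors of the stomach, were also in the brightest 10%. Of the 13 stomach genes with a probe, PGC and LIPF were the only other detected members, and the gastric genes GKN1, GKN2, ATP4A, CLDN18 and ANXA10 were not detected.

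Of 8 Paneth cell genes, 2 (25%) were detected, beside 54.6% of all genes. These were lysozyme, LYZ (2126, 1340 and 2290, on its brighter probe only), and the phospholipase PLA2G2A (624, 527 and 619). The defensins DEFA5 and DEFA6 were not detected. Of 12 enteroendocrine genes, CHGB alone was detected, with 459, 321 and 468, and it was lost with a detection threshold of 0.01. CHGA, GCG, SST, PYY, CCK and NEUROG3 were not detected. Of 15 pancreatic acinar genes, 4 (26.7%) were detected. The trypsin inhibitor SPINK1 gave 26094, 20657 and 23695, at percentile 99.5, followed by the trypsinogens PRSS1 (3087, 2060 and 2140) and PRSS2, which are near-identical, and the lipase CEL. The acinar enzymes CPA1, CTRC, PNLIP and CELA3A and the regulator PTF1A were not detected.

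Crypt genes were detected in 12 of 15 cases (80%), beside 54.6% of all genes. Of the 15, 7 were in the brightest 10%, and the list had a median percentile of 85.8. PROM1, a membrane glycoprotein of progenitor cells, gave 14469, 11417 and 8911. SOX9 (10720, 7768 and 10023) and the Wnt-driven ASCL2 (10550, 7366 and 9675) were followed by CDCA7, BMI1, CD44 and TNFRSF19. AXIN2, a Wnt feedback gene, gave 5301, 3709 and 4675, and RNF43, which lowers Wnt receptors, gave 1608, 1273 and 869. LGR5, the receptor that marks crypt base stem cells, was close to background at 518, 306 and 518, detected on all 3 arrays. OLFM4 (337, 222 and 331) and SMOC2 were not detected. All 13 cell cycle genes were detected, from MCM3 (23044, 18725 and 20698) down to MKI67 (695, 404 and 634).

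Regulators of endodermal identity included bright members and undetected ones. Of 21 transcription factors of the list, 15 (71.4%) were detected, beside 54.6% of all genes, and 4 lay in the brightest 10%. CEBPA, a factor of liver and fat, gave 24034, 19918 and 22694, with a mean of 22216 ± 2100 (SD, n = 3), at rank 174. The pioneer factor FOXA1 gave 23022, 18221 and 23403, FOXA2 gave 18530, 11925 and 15307 on 1 probe while its other 2 probes were not detected, and FOXA3 gave 4446, 3267 and 4720. CDX2, which specifies intestine, gave 13541, 9614 and 11853, at rank 989, while its relative CDX1 gave 319, 200 and 296 and was not detected.

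GATA6 gave 1205, 921 and 1216 and was detected, while GATA4 (339, 229 and 352) and GATA5 were not. SOX2, a factor of foregut and pluripotent cells, gave 2181, 1556 and 2131 and was detected on its 2 probes. PDX1, a factor of duodenum and pancreas, gave 1605, 1192 and 1710 on its brighter probe, and its other probe was not detected. HNF4G, a relative of HNF4A enriched in intestine, gave 837, 639 and 746. The lipid regulator CREB3L3 was just above background, ONECUT2 was detected on 1 array, and ONECUT1 and SOX17 were not detected.

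Of 19 nuclear receptors, 12 (63.2%) were detected, 2 were mixed and 5 were not, near the 54.6% of all genes and 58.8% of protein-coding genes detected. RXRA, the shared heterodimer partner, gave 8438, 5861 and 8292, and PPARG, a fatty acid sensor, gave 6112, 5348 and 6468. A further probe of PPARG was detected, and its remaining probes were not. NR5A2, which encodes LRH-1, the target of the study's hairpin, gave 1786, 1304 and 1790, with a mean of 1627 ± 279 (SD, n = 3), at rank 6000. A further probe of NR5A2 gave 1503, 1116 and 1469, and its remaining probe was not detected. NR0B2, which encodes SHP, a target and partner of LRH-1, gave 339, 245 and 355 and was not detected. The vitamin D receptor VDR (1030, 660 and 728, on its brighter probe only) and the glucocorticoid receptor NR3C1 (515, 311 and 508) were detected. The sex steroid receptors ESR1 and PGR were not.

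HOX genes, which record position along the body axis, were a family chosen after their values were seen. Of 29 with a probe, 13 (44.8%) were detected, beside 54.6% of all genes. HOXC6 gave 9684, 7620 and 8447, HOXB7 gave 7348, 5256 and 6429, and the posterior HOXC13 gave 4208, 3319 and 4168. Of the HOXC cluster 6 of 9 were detected, of HOXB 5 of 10 and of HOXD 2 of 9, while the single HOXA gene measured was mixed, and the posterior HOXD9 to HOXD13 were not detected.

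**Figure D5:**
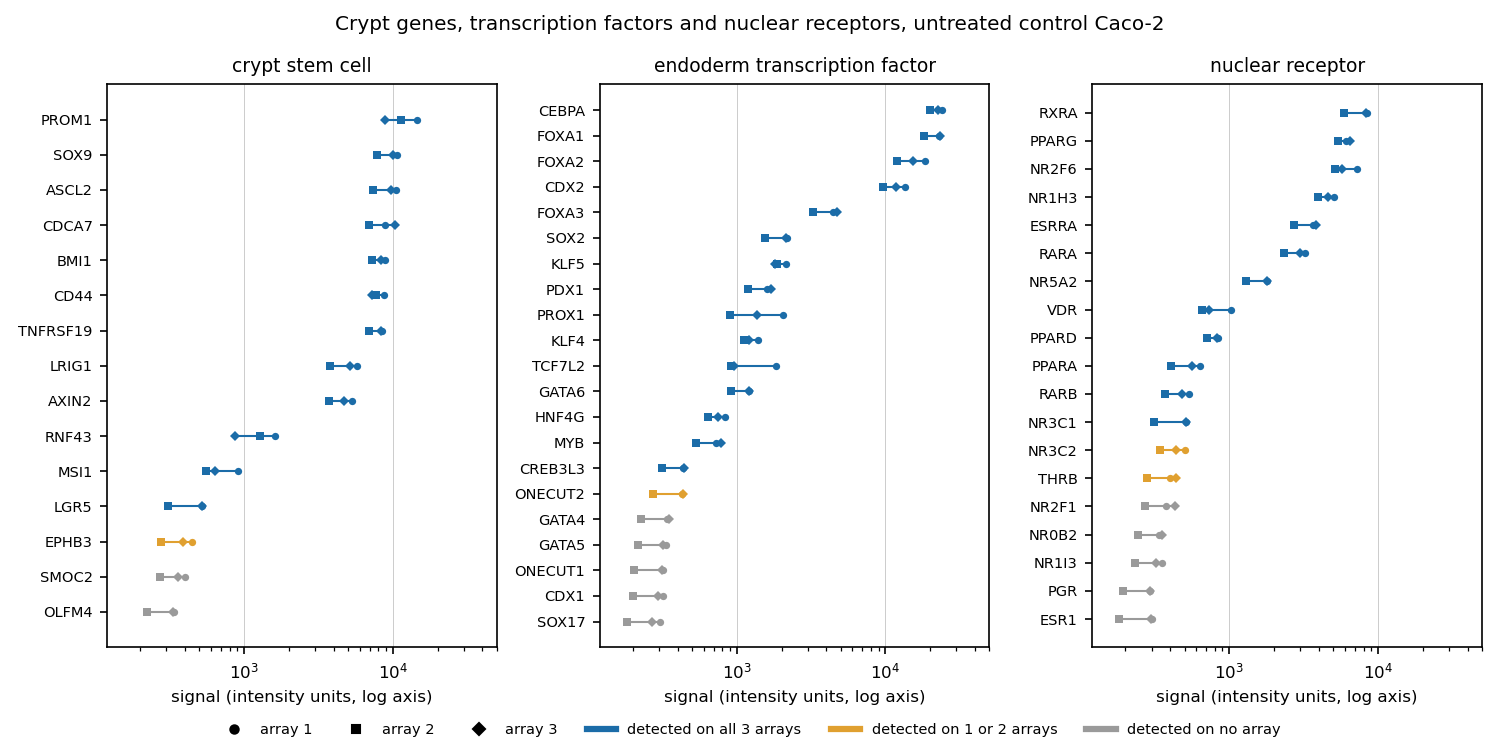
Signal in intensity units (log axis) on arrays 1, 2 and 3 (circle, square and diamond, joined by a line) for crypt genes, endodermal transcription factors and nuclear receptors, coloured by detection call. CEBPA and FOXA1 lie furthest right, NR5A2 lies between 1304 and 1790, and CDX1, GATA4 and NR0B2 lie at background.

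Variation between the 3 arrays was small beside these differences in signal. The range over the arrays had a median of 0.51 on the log2 scale for detected genes. These ranges are of raw signals, so they include the difference in brightness between whole arrays, whose medians were 386, 251 and 385. Of 12614 genes detected on at least 1 array, 230 had a range over 1 log2 unit. The widest range, 2.89, was that of RNA18SN5, a ribosomal RNA gene, with 8462, 2754 and 20435 on arrays 1, 2 and 3. The ribosomal RNA gene RNA28SN5 followed another order, with 6246, 1874 and 2190. The other genes of widest range were GABARAP, USP22, GM2A, MAEA, MICAL2, SRGAP1, NMI and ATG4B. Of these, GABARAP gave 434, 245 and 1117, and array 3 was highest for all of them but NMI. No list gene named above was among them.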

How the data were processed

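Illumina bead arrays measured biotinylated cRNA, per the labels' protocols. Per the file headers, the deposited table holds average bead intensity, which is linear, and beside it a detection p-value, which moves in 770 equal steps. The authors' deposited value table is on a log2 scale with the same distribution on every array and a median of 6.64, as read from its values, and served only as an alternative. Its transformation is not given in the sources used here. GenomeStudio and lumi are named without role, per the submitters' processing notes. No background was subtracted from the intensities here, and no normalization was applied, because genes were ranked by the deposited signal. All 12 arrays matched their own value-table column best by correlation, and no pair of the 3 arrays used held identical values.

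Of 47314 probes, 30109 had 1 gene symbol in the platform annotation, 8 several and 17197 none. Through Entrez identifiers 30070 were matched to RefSeq symbols, and 39 kept the platform symbol. Probes of 20042 genes were used, and 94 genes on the Y chromosome or XIST were counted but left out of tables. The probe with the highest mean log2 signal over the 3 arrays stood for its gene. The 20 gene lists held 371 genes, of which 346 had a probe with 1 symbol, and the other 25 were not analysed here. The lists and the 3 arrays were chosen with earlier results of these data known. Named genes were the 25 brightest, the list members, genes at the threshold and the 10 with the widest range over the arrays. Families named as such were chosen after their values were seen. The calling steps were tested on simulated data. Python 3.11.15 with pandas 2.3.3 was used, and limma 3.58.1 in R 4.3.3 (neqc, offset 16) for an alternative scale. Cross-hybridisation between close relatives was not corrected. The number of arrays, 3, limits the precision.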

Additional observations from a re-analysis of the deposited data

How the results depend on the processing

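Counts of detected genes kept within 1.5 times of the reported ones for all genes and for the intestinal, liver-type, colon and fetal-type identities. With a detection p-value under 0.01, 10121 genes were detected and 8872 were not, with 42 intestinal, 32 liver-type, 10 colon and 17 fetal-type genes detected, against 45, 35, 10 and 18. With p-values adjusted within each array by Benjamini-Hochberg, 10455 genes were detected. Counting any probe of a gene, a looser rule, gave 10958, and choosing the probe after neqc normalization gave 10953. Leaving out each array in turn gave 11028 to 11386 detected genes, with 45 to 50 intestinal, 35 to 36 liver-type, 10 to 12 colon and 18 fetal-type genes. Among single lists, the enteroendocrine count of 1 became 0 at the stricter threshold and the endothelial count of 1 became 2 without replicate 2. The median percentile of a list moved by at most 0.64 with neqc, 0.86 with the authors' processed values, 1.06 with linear means and 4.08 without an array. No paired analysis was possible because no groups were compared. Signals under 278 to 438 intensity units, depending on the array, could not be told from background, so a gene called not detected may still be expressed.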

Other observations

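Detection differed between kinds of gene. Of 17731 protein-coding genes 58.8% were detected on all 3 arrays, of 754 long noncoding RNA genes 21.4%, of 279 snoRNA genes 43.7%, and of 560 microRNA genes 4.64%. Of 518 transcribed pseudogenes 32.6% were detected.

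Probes of the same gene often disagreed. Of 6691 genes with more than 1 probe, 4323 were detected by the brightest probe, and 1970 of these (45.6%) had another probe that was detected on no array. TNFRSF19 gave 8397, 6944 and 8260 on its brightest probe, while its other 3 probes were not detected. A widely expressed gene could also be dim: PPIA, cyclophilin A, gave 1067, 618 and 1297 on its only probe, at rank 7525, whereas the other 11 widely expressed reference genes ranked between 3 and 3844. Signals of genes that were not detected still correlated between arrays, at 0.61 to 0.71 across genes.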
